A study of Mus musculus with 9 samples.

Results

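The heme oxygenase to bilirubin pathway was followed through 5 genes in mouse liver, chosen by name from the 36119 genes of the deposited table as the enzymes of heme breakdown (Hmox1, Hmox2), biliverdin reduction (Blvra, Blvrb) and bilirubin glucuronidation (Ugt1a1). All 5 were found, and all 5 passed the filter on low counts. RNA with a poly(A) tail was sequenced from the livers of 9 wild-type male C57BL/6J mice aged 6 to 8 weeks, 3 in each of 3 groups, with 1 library per mouse. The Cont mice received corn oil by gavage and the OA mice received oleanolic acid, a plant triterpenoid that at high dose impairs bile flow, at 295.5 mg/kg in the sample titles and 295.92 mg/kg in the treatment protocol. The ZnPP+OA mice received protoporphyrin IX zinc, an inhibitor of heme oxygenase activity, by intraperitoneal injection at 20 mg/kg, 2 h before OA. Cont and OA mice were given saline in its place, and all groups were treated for 4 days and fasted for 12 h before sampling. No group given ZnPP without OA was analysed, so any difference between ZnPP+OA and OA is a difference between those treatments as given. Replicate numbers mark separate mice.

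Heme oxygenase opens the heme ring and releases iron, carbon monoxide and biliverdin. The enzyme has an inducible form, heme oxygenase 1 (HO-1, from Hmox1), which in liver is abundant in the macrophages that take up old red cells, and a constitutive form from Hmox2. Biliverdin reductase turns biliverdin into bilirubin, which hepatocytes take up, join to glucuronic acid through the enzyme of Ugt1a1, and export into bile. In people, loss of UGT1A1 activity leads to high unconjugated bilirubin.

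Hmox1, Blvra and Blvrb stood above, and Ugt1a1 below, every Cont liver in all OA livers, where 29.1% of all genes did not overlap between these groups. Blvra rose 3.23-fold, Hmox1 was fitted 2.22-fold above Cont without passing the adjusted threshold, and Ugt1a1 was at 0.201 of its Cont level, also without passing it. When the counts of the 8 Ugt1a genes, which share most of their exons, were summed, that sum fell. Blvra and this sum passed the adjusted threshold, and each missed it in some fits with 1 library left out. The sum was formed after the data had been seen. The ratio of Hmox1 to Ugt1a1 counts within a library, which needs no scaling between libraries, ran from 0.108 to 0.184 in Cont livers and from 1.03 to 6.15 in OA livers. It rests on how reads were split between the Ugt1a genes, which is uncertain. Between ZnPP+OA and OA livers no member passed the adjusted threshold.

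By Ensembl ID, in the GENCODE M21 annotation of GRCm38, all 5 genes lie on the plus strand. Hmox1 (ENSMUSG00000005413) lies at chr8:75093621-75100589, Hmox2 (ENSMUSG00000004070) at chr16:4726361-4766742 and Blvra (ENSMUSG00000001999) at chr2:127070665-127097084. Blvrb (ENSMUSG00000040466) lies at chr7:27447978-27466144 and Ugt1a1 (ENSMUSG00000089960) at chr1:88211959-88218997. Hmox2 overlaps Gm15859 on its own strand and the coding gene Cdip1 on the opposite strand, and whether strand was used in counting is not stated, so reads where they overlap cannot be told apart. Ugt1a1 sits at the end of a cluster in which each gene has its own first exon and all use the same last exons. Of the 5 exons of Ugt1a1, 4 lie wholly inside exons of other Ugt1a genes, which makes 1311 of its 2224 exon bases (58.9%) common to the cluster and leaves 913 (41.1%) to Ugt1a1 alone. Of the words of 31 bases in their transcripts, Hmox1, Hmox2 and Blvrb shared none with another gene, Blvra shared 4 of 2469 and Ugt1a1 shared 1284 of 2194.

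Promoters are shown for Blvra and Ugt1a1, which had the widest differences between OA and Cont livers, and for Blvrb, the other reductase. Each is the 250 bases before a RefSeq start site on GRCm38.p6, plus strand. Blvra spans chr2:127070407-127070656, Blvrb chr7:27447728-27447977 (the first of its 2 start sites) and Ugt1a1 chr1:88211709-88211958. Capitals mark a motif match.
Blvra: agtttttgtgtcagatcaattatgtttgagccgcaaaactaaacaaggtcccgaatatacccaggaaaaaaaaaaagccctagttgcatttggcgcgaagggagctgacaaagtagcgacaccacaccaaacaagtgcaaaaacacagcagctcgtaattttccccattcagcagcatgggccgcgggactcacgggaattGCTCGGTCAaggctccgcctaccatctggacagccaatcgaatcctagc
Blvrb: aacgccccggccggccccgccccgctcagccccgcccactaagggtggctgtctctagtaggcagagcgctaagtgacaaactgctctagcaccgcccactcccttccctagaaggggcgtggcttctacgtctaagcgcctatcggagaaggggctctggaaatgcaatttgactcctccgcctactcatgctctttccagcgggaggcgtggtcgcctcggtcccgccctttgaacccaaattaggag
Ugt1a1: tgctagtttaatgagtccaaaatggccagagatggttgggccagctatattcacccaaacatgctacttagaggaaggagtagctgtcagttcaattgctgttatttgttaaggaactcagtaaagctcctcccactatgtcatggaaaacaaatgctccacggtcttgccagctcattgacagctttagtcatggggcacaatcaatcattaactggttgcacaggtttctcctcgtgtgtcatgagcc

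The capitals in the Blvra promoter begin at base −49 of the plus strand as printed. They are the core of the antioxidant response element, TGACNNNGC, read on the minus strand as TGACCGAGC. The element is the site through which the transcription factor Nrf2 is known to act, and 10.2% of 32851 promoter windows of the same length hold this short core. The other letters searched on both strands, TGACTCA (AP-1, in 4.46% of windows) and CACGTG (E-box, in 6.02%), were in none of these windows. Ugt1a1, the 2 windows of Blvrb and the 3 of Hmox2 held none of the 3 motifs. The promoter of Hmox1 is not shown here.

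Library totals ran from 32639438 counts (Cont 1) to 85060187 counts (OA 3), and mitochondrial genes with their nuclear copies took 17.4% (OA 3) to 92.0% (Cont 2) of them. Outside these genes the counts ran from 4946748 (Cont 2) to 70295836 (OA 3), and every OA liver was above all others. The mitochondrial share was 47.5%, 24.6% and 17.4% in OA 1, 2 and 3, below that of every other liver. It was 53.7%, 92.0% and 58.6% in Cont 1, 2 and 3 and 77.8%, 84.3% and 74.1% in ZnPP+OA 1, 2 and 3. Differences of OA livers from the other groups thus coincide with this share and with these counts. The part of either was not tested. Counts were therefore scaled by TMM, with factors from 0.265 (Cont 2) to 2.53 (OA 3), and levels are given as CPM, the usual scaling of a count to library size, here with the TMM-scaled size. Scaled by library totals alone the median gene would be 1.48 higher in OA than in Cont on the log2 scale, against 0.09 with TMM. The smallest count of any member in a library was 37 (Blvra in Cont 2). The biological coefficient of variation, the relative spread between mice beyond counting noise, was lowest in OA livers (0.421), with 0.669 in ZnPP+OA and 0.870 in Cont livers.

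**Figure D1:**
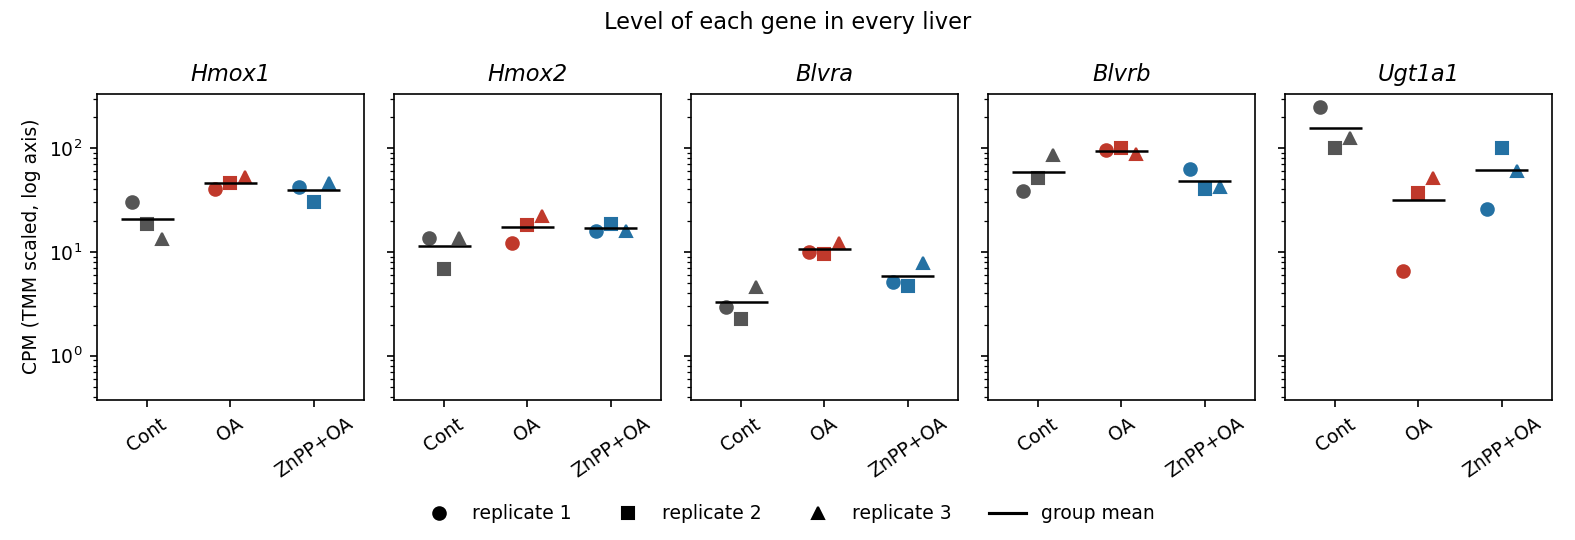
CPM of the 5 genes in each of the 9 livers on a shared log axis, with the replicate number as the marker and the group mean as a line. The 3 OA livers sit above all Cont livers for Hmox1, Blvra and Blvrb and below them for Ugt1a1, and the ZnPP+OA livers sit below the OA livers for Blvra and Blvrb.

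Between OA and Cont livers, 1 of the 5 genes passed an adjusted p of 0.05 (edgeR quasi-likelihood test, 1 fit of the 3 groups, adjusted over all 18895 genes tested), where 5.21% of all genes did. The libraries of the groups did not overlap for 4 of the 5, 3 higher and 1 lower, where 29.1% of all genes did not overlap. The median log2 fold change of the 5 genes was 0.69 and that of all genes 0.09.

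Hmox1, which encodes HO-1, stood at 30.6, 18.6 and 13.5 CPM in Cont 1, 2 and 3, at 40.0, 46.4 and 52.8 CPM in OA 1, 2 and 3, and at 42.6, 30.5 and 46.5 CPM in ZnPP+OA 1, 2 and 3. Every OA liver was above every Cont liver, and the lowest ZnPP+OA liver was just below the highest Cont liver. The means were 20.9 ± 8.80, 46.4 ± 6.39 and 39.9 ± 8.35 CPM (SD, n = 3 mice per group). The log2 fold change of Hmox1 in OA against Cont was 1.15 ± 0.34 (SE, 95% confidence interval 0.42 to 1.88), with an adjusted p of 0.0693 from edgeR. Hmox1 passed the threshold without Cont 1, the Cont liver with the most Hmox1, at a log2 fold change of 1.56 and an adjusted p of 0.0246. It also passed with DESeq2 (0.98, adjusted p = 0.0456), without a filter on low counts (1.30, adjusted p = 0.0135) and on every scale that leaves the mitochondrial share in the totals.

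Between ZnPP+OA and OA livers the log2 fold change of Hmox1 was −0.22 (95% confidence interval −0.94 to 0.50, adjusted p = 0.807 from edgeR), and the groups overlapped. The interval does not exclude a fall of 0.94 on the log2 scale. Scaled by library totals alone, Hmox1 was called lower (−1.97, adjusted p = 0.0412), in a fit where 6435 genes were called. Against Cont, Hmox1 in ZnPP+OA livers had a log2 fold change of 0.93 (95% confidence interval 0.21 to 1.66, adjusted p = 0.589 from edgeR), and the groups overlapped.

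Hmox2, the constitutive heme oxygenase, stood at 13.6, 6.89 and 13.5 CPM in Cont 1, 2 and 3, at 12.3, 18.2 and 22.1 CPM in OA 1, 2 and 3, and at 16.0, 18.8 and 16.1 CPM in ZnPP+OA 1, 2 and 3. Cont and OA livers overlapped, while all 3 ZnPP+OA livers were above all Cont livers. The log2 fold change of Hmox2 was 0.63 in OA against Cont (95% confidence interval −0.11 to 1.36, adjusted p = 0.308 from edgeR) and −0.05 in ZnPP+OA against OA (−0.78 to 0.68, adjusted p = 0.961). The sign of the second turned with other size factors (0.07) and with DESeq2 (0.06).

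The count ratio of Hmox1 to Hmox2 was 2.25, 2.70 and 0.998 in Cont 1, 2 and 3, 3.26, 2.55 and 2.38 in OA 1, 2 and 3, and 2.66, 1.62 and 2.90 in ZnPP+OA 1, 2 and 3. The ratio in OA livers was 1.48 times that in Cont livers (two-sided exact permutation test, p = 0.3), and the groups overlapped in all 3 comparisons. A shift between the inducible and the constitutive form was thus not detectable beyond the spread between mice.

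Blvra, which encodes biliverdin reductase A, stood at 2.93, 2.26 and 4.61 CPM in Cont 1, 2 and 3, at 9.97, 9.65 and 12.3 CPM in OA 1, 2 and 3, and at 5.08, 4.73 and 7.90 CPM in ZnPP+OA 1, 2 and 3. The 3 groups did not overlap, with Cont lowest and OA highest. The means were 3.27 ± 1.21, 10.6 ± 1.45 and 5.91 ± 1.74 CPM (SD, n = 3 mice per group). In OA against Cont livers Blvra rose by 1.69 ± 0.39 on the log2 scale (SE, 95% confidence interval 0.85 to 2.53, adjusted p = 0.0260 from edgeR). Its adjusted p was 0.0531 without Cont 1, 0.0707 without Cont 2, 0.0505 without OA 1, 0.0934 without OA 2 and 0.128 without OA 3, with log2 fold changes of 1.52 to 1.98 over all libraries left out. A fit of only the Cont and OA livers gave 1.64 with an adjusted p of 0.0574.

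Blvrb, which encodes biliverdin reductase B, an enzyme also known as flavin reductase, stood at 39.0, 51.9 and 85.4 CPM in Cont 1, 2 and 3, at 95.5, 101 and 87.7 CPM in OA 1, 2 and 3, and at 63.0, 40.3 and 42.4 CPM in ZnPP+OA 1, 2 and 3. Every OA liver was above every other liver, though OA 3 only just exceeded Cont 3. The log2 fold change of Blvrb in OA against Cont was 0.69 ± 0.33 (SE, 95% confidence interval −0.03 to 1.41, adjusted p = 0.249 from edgeR). In ZnPP+OA against Cont it was −0.27 (adjusted p = 0.859), and those groups overlapped.

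Between ZnPP+OA and OA livers, none of the 5 genes passed the adjusted threshold in edgeR, where 2.87% of all genes did. At an unadjusted p under 0.05 there were 2, Blvra and Blvrb, where 18.1% of all genes were. DESeq2 called 0 of the 5, and limma on log2(FPKM + 1) called 4 lower on a scale that moves with the mitochondrial share. Blvra and Blvrb were also the 2 genes whose groups did not overlap, where 32.8% of all genes did not. Blvra stood at −0.85 ± 0.38 on the log2 scale (SE, adjusted p = 0.257 from edgeR) and Blvrb at −0.96 ± 0.34 (95% confidence interval −1.69 to −0.24, adjusted p = 0.145). A share of 2 in 5 lies near the 32.8% of all genes without overlap and above the 18.1% at that unadjusted p. Neither share was tested.

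Relative to both reductases, Hmox1 stood higher in every ZnPP+OA liver than in any OA liver. The count ratio of Hmox1 to Blvrb was 0.419, 0.458 and 0.602 in OA 1, 2 and 3 and 0.675, 0.757 and 1.10 in ZnPP+OA 1, 2 and 3, with no overlap and a 1.69-fold difference. The ratio of Hmox1 to Blvra was 4.01, 4.81 and 4.29 in OA 1, 2 and 3 and 8.37, 6.45 and 5.89 in ZnPP+OA 1, 2 and 3, a 1.57-fold difference. Both gave p = 0.1 in two-sided exact permutation tests, the smallest that 3 mice against 3 allow, and 0.225 adjusted over the 18 ratio tests run. Cont livers spread over a wider range, from 0.158 to 0.786 for Hmox1 to Blvrb.

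The balance of the reductases in Cont livers lay apart from that in both other groups. There were 0.0753, 0.0435 and 0.0540 Blvra counts per Blvrb count in Cont 1, 2 and 3, 0.104, 0.0952 and 0.140 in OA 1, 2 and 3, and 0.0807, 0.117 and 0.186 in ZnPP+OA 1, 2 and 3. Cont livers were below all others. The ratio was 1.99-fold that of Cont in OA livers and 2.15-fold in ZnPP+OA livers (exact permutation p = 0.1 each, adjusted p = 0.225), and these comparisons share the Cont livers.

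Ugt1a1, the bilirubin glucuronosyltransferase, stood at 247, 101 and 125 CPM in Cont 1, 2 and 3, at 6.50, 37.4 and 51.3 CPM in OA 1, 2 and 3, and at 25.8, 101 and 59.9 CPM in ZnPP+OA 1, 2 and 3. Every OA liver was below every Cont liver, OA 1 lay far below the other OA livers, and ZnPP+OA livers overlapped those of OA. The means were 158 ± 78.1, 31.7 ± 22.9 and 62.2 ± 37.6 CPM (SD, n = 3 mice per group). The log2 fold change of Ugt1a1 in OA against Cont was −2.31 ± 0.67 (SE, 95% confidence interval −3.76 to −0.87, adjusted p = 0.0662 from edgeR). It passed the threshold without a filter (−2.16, adjusted p = 3.86e-06), with at least 10 counts required in every library (−2.46, adjusted p = 0.0255) and with DESeq2 (−2.50, adjusted p = 0.00381). On library totals alone it was −0.90 with an adjusted p of 0.369, beside a median of 1.48 for all genes. In ZnPP+OA against OA the log2 fold change of Ugt1a1 was 0.97 (95% confidence interval −0.42 to 2.36, adjusted p = 0.484 from edgeR), and on library totals alone it was −1.05.

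The sources used here do not say how reads of the shared Ugt1a exons were assigned, so the split between the genes of the cluster is uncertain. Ugt1a1 took 57.1% (95% Wilson interval 56.3 to 57.9), 62.4% (60.6 to 64.2) and 73.2% (72.4 to 74.0) of the cluster's counts in Cont 1, 2 and 3. It took 12.1% (11.3 to 12.9), 55.3% (54.3 to 56.3) and 57.2% (56.5 to 57.9) in OA 1, 2 and 3, and 20.1% (19.0 to 21.2), 57.7% (56.4 to 59.1) and 40.2% (38.9 to 41.5) in ZnPP+OA 1, 2 and 3. The intervals cover counting error only. Mice of 1 group differed far beyond them, and the share did not separate the groups (exact permutation p = 0.2 for OA against Cont).

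In OA 1, where Ugt1a1 was lowest, 53.9% of the cluster's counts went to Ugt1a6a, which encodes an enzyme for phenols. Ugt1a6a took 5.34% to 9.26% of them in Cont livers and a larger share in every OA liver. In ZnPP+OA 1, 2 and 3 Ugt1a6a took 36.7%, 8.37% and 34.2%. Its level was 16.6 ± 6.19 CPM in Cont, 24.3 ± 4.66 CPM in OA and 37.6 ± 20.0 CPM in ZnPP+OA livers (SD, n = 3 mice per group). The log2 fold change of Ugt1a6a in OA against Cont was 0.55 (adjusted p = 0.503 from edgeR). Ugt1a6b (log2 fold change −3.08, adjusted p = 0.0757) and Ugt1a9 (−2.53, adjusted p = 0.174) had the lowest fitted values beside Ugt1a1, Ugt1a7c stood at −1.50 and Ugt1a5 at −0.66. For Ugt1a6b and Ugt1a9 the Cont and OA livers overlapped, with Cont means of 42.3 ± 40.7 and 26.5 ± 38.2 CPM (SD). Ugt1a9 took 16.3% of the cluster's counts in Cont 1, against 1.43% and 3.88% in Cont 2 and 3. Ugt1a10 had no count in any library and Ugt1a2 was too low to test.

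The summed Ugt1a genes do not depend on how counts were divided among the 8 genes of the deposited table. Whether shared reads were dropped or counted more than once is not stated, so the sum can still depend on that. Ugt1a8, which overlaps Ugt1a1, is not among the 8, and any reads given to it are missing from the sum. The sum stood at 433, 162 and 171 CPM in Cont 1, 2 and 3, at 53.8, 67.6 and 89.7 CPM in OA 1, 2 and 3, and at 129, 175 and 149 CPM in ZnPP+OA 1, 2 and 3. The OA livers were below all others, and Cont and ZnPP+OA livers overlapped. In OA against Cont the sum fell by 1.86 ± 0.41 (log2, SE, with an adjusted p of 0.0221 from edgeR), and it had an adjusted p of 0.0569 without Cont 1 (log2 fold change −1.22), 0.0764 without OA 1, 0.120 without OA 2 and 0.0665 without OA 3. In ZnPP+OA against OA the sum stood at 1.10 ± 0.40 on the log2 scale (SE, 95% confidence interval 0.23 to 1.97, adjusted p = 0.164 from edgeR), which passed in a fit of those 6 livers alone (1.14, adjusted p = 0.0352). The summing was chosen after the data had been seen.

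**Figure D2:**
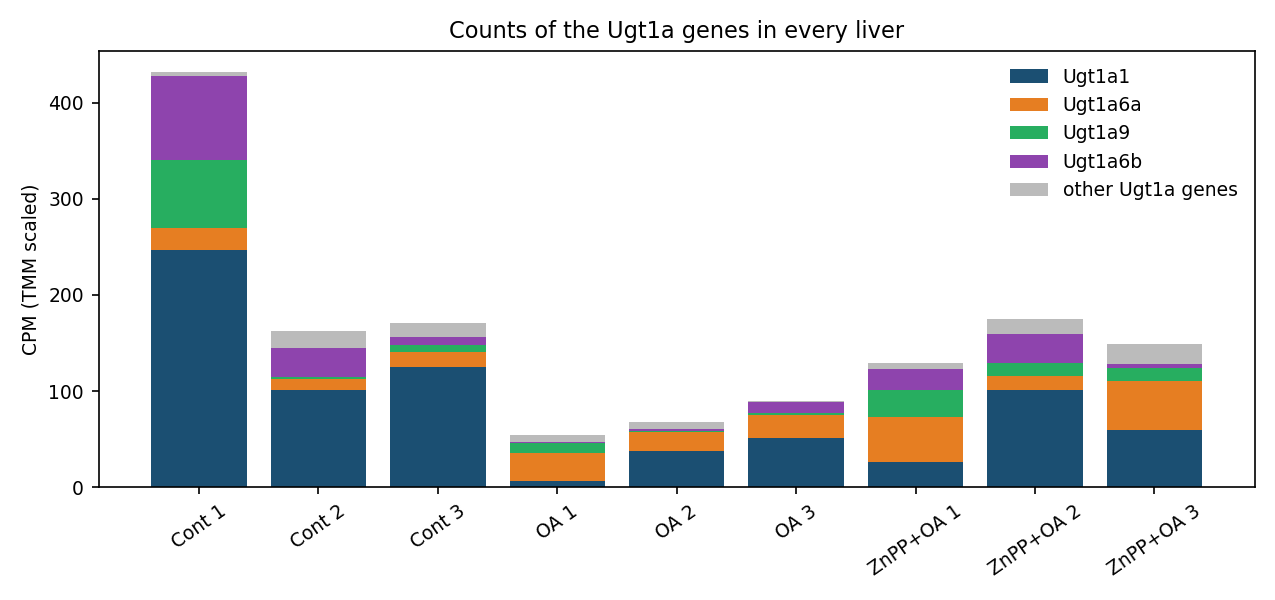
Stacked CPM of the Ugt1a genes in each of the 9 livers, with Ugt1a1, Ugt1a6a, Ugt1a9, Ugt1a6b and the remaining genes of the cluster as segments. The whole bars of the 3 OA livers, at 53.8 to 89.7 CPM, are shorter than all others, and the Ugt1a1 segment is smallest in OA 1.

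Of the 6 ratios between members, that of Hmox1 to Ugt1a1 differed most between OA and Cont livers. The count ratio of Hmox1 to Ugt1a1 was 0.124, 0.184 and 0.108 in Cont 1, 2 and 3, 6.15, 1.24 and 1.03 in OA 1, 2 and 3, and 1.65, 0.302 and 0.777 in ZnPP+OA 1, 2 and 3. All Cont livers had more Ugt1a1 than Hmox1 counts, all OA livers the reverse, and ZnPP+OA livers lay on both sides. That reversal rests on the uncertain split. Against the summed Ugt1a genes, Hmox1 had fewer counts in OA 1 (4350 against 5851), OA 2 (6789 against 9883) and OA 3 (11356 against 19313). The ratio of Hmox1 to Ugt1a1 was 14.7-fold higher in OA and 5.40-fold higher in ZnPP+OA than in Cont livers, with no overlap. In this ratio the OA and ZnPP+OA livers overlapped (exact permutation p = 0.4). Relative to the summed Ugt1a genes, Hmox1 counts stood higher in every OA liver than in any ZnPP+OA liver. Hmox2 to Ugt1a1 was 9.94-fold higher in OA and 4.24-fold higher in ZnPP+OA than in Cont livers, also with no overlap. Each difference from Cont had p = 0.1 in the exact permutation test, the smallest possible, and an adjusted p of 0.225.

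**Figure D3:**
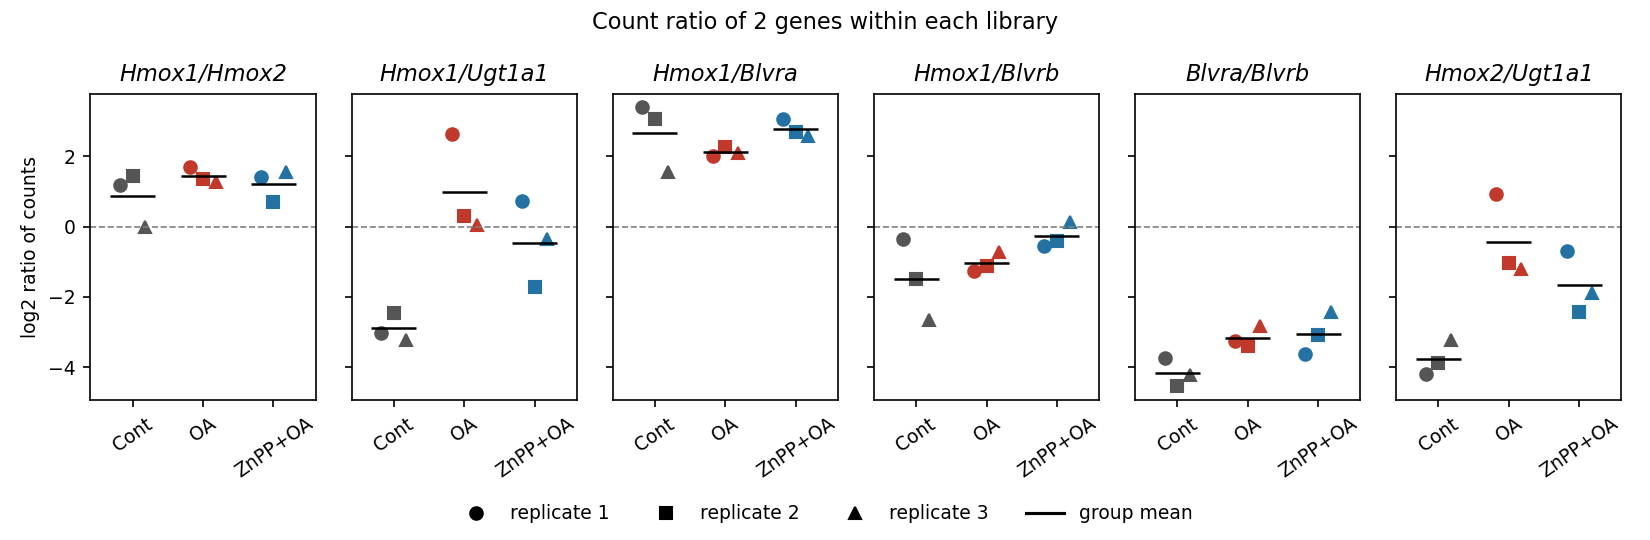
Log2 of the count ratio of 2 genes in each library, in 6 panels, with the replicate number as the marker and the group mean as a line. The Cont livers lie apart from all others for Hmox1/Ugt1a1, Hmox2/Ugt1a1 and Blvra/Blvrb, while all groups overlap for Hmox1/Hmox2.

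Between ZnPP+OA and Cont livers edgeR called 0% of all genes, and so none of the 5. At an unadjusted p under 0.05 there were 1542 genes (8.16%), among them Hmox1 and Blvra, DESeq2 called 245 genes and limma on log2(FPKM + 1) called 2, with no member among either. Groups did not overlap for Hmox2 and Blvra, which were higher, and Ugt1a1, which was lower, where 10.3% of all genes did not overlap. The log2 fold change of Blvra was 0.84 (95% confidence interval 0.01 to 1.67, adjusted p = 0.606 from edgeR) and that of Ugt1a1 −1.34 (−2.75 to 0.06, adjusted p = 0.612). A p that misses the threshold does not show that these livers were back at Cont levels.

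**Figure D4:**
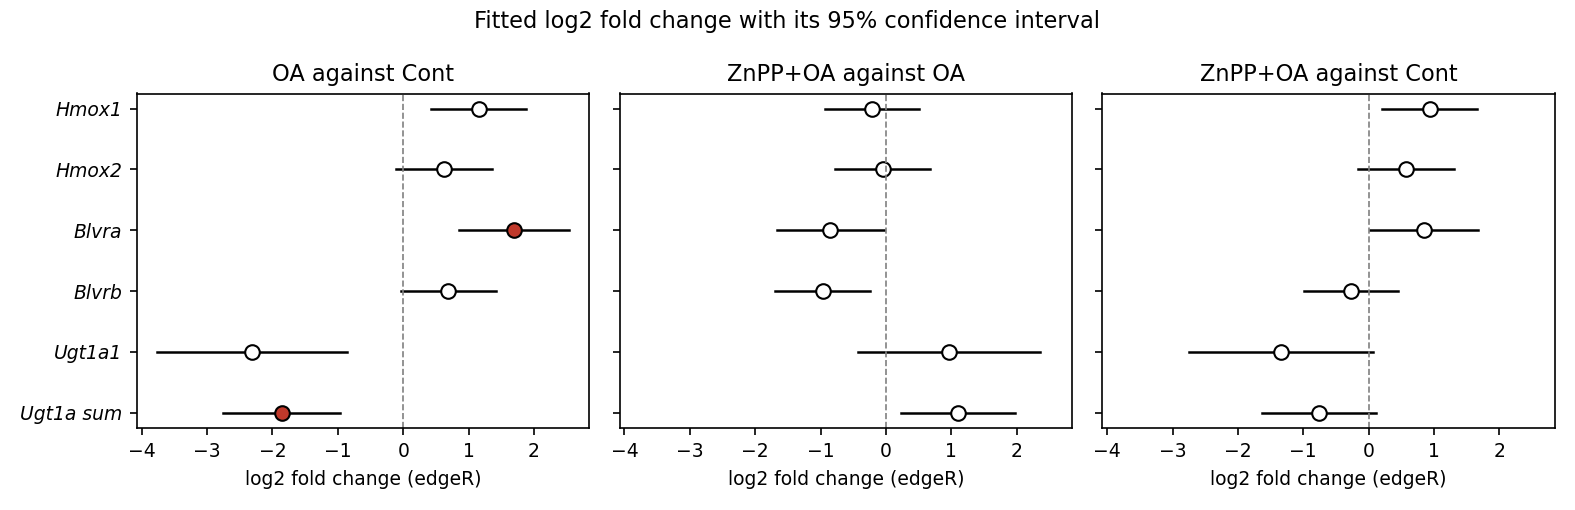
Log2 fold change of each gene and of the summed Ugt1a genes in the 3 comparisons, with lines for the 95% confidence interval and a filled point where the adjusted p was under 0.05. Filled points are Blvra and the Ugt1a sum in OA against Cont, and no point is filled in the other comparisons.

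FPKM, which divide by gene length, allow the genes to be ranked within a library. Ugt1a1 was first in all 3 Cont livers, where the first gene stood 30.0 to 93.0 times above the last. In all 3 OA livers Blvrb was first and Hmox1 second, and the first stood 6.26 to 11.8 times above the last. In ZnPP+OA livers Hmox1 was above Blvrb in 3 of 3 livers, with Hmox1 first in ZnPP+OA 1 and Ugt1a1 first in ZnPP+OA 2 and 3. Blvra was last in every library except OA 1, where Ugt1a1 was last. Hmox1 was above Hmox2 in 9 of 9 livers and Blvrb above Blvra in 9 of 9, while Hmox1 and Blvrb changed places between Cont livers, so their order there was not settled.

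The genes before and beside the heme oxygenase step moved in part. As background for the lists, edgeR called 454 of all 18895 genes higher and 530 lower in OA against Cont. In ZnPP+OA against OA it called 303 higher and 239 lower. Of 9 tested genes of heme entry and scavenging, 2 rose in OA livers (median log2 fold change 0.90). Cd163, the macrophage receptor for hemoglobin bound to haptoglobin, rose in OA livers, from a Cont mean of 5.70 ± 2.25 CPM to 34.1 ± 6.86 CPM (SD, n = 3 mice per group, log2 fold change 2.59, adjusted p = 0.00218 from edgeR) and fell to 6.76 ± 1.73 CPM in ZnPP+OA livers (−2.33 against OA, adjusted p = 0.00734). Hp, which encodes haptoglobin, rose by 1.84 on the log2 scale (adjusted p = 0.0397), a call that was lost without any 1 of the 9 libraries. Hpx, which encodes the heme carrier hemopexin, stood at 1.10 (adjusted p = 0.153). Among 7 genes of electron supply and iron release edgeR called 0 in OA livers, with 1 at an unadjusted p under 0.05, and DESeq2 called 1 lower and limma on log2(FPKM + 1) 5 higher. Of these, Ncoa4, which carries ferritin to its breakdown, stood at −0.91 (unadjusted p = 0.0243, adjusted p = 0.157 from edgeR), Ftl1, the ferritin light chain, stood at 0.82 (adjusted p = 0.298) and Slc40a1, the iron exporter ferroportin, at 0.52 (adjusted p = 0.350).

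Around the glucuronidation step, Slco1b2, a sinusoidal carrier that takes up bilirubin, fell in OA livers, from a Cont mean of 164 ± 29.6 CPM to 30.8 ± 1.91 CPM (log2 fold change −2.42, adjusted p = 0.00168 from edgeR) and rose to 133 ± 37.1 CPM in ZnPP+OA livers (2.11 against OA, adjusted p = 0.00682, and 0.0577 without OA 2). Slco1a1, a related carrier, fell by 3.22 (adjusted p = 0.00291), while Gsta1, of the glutathione S-transferases that also bind bilirubin in the cytosol, rose by 3.56 (adjusted p = 0.0137). In all, 1 of 11 tested genes of uptake and binding rose and 2 fell. Of 7 genes of glucuronic acid supply 1 rose, Ugdh, which makes UDP-glucuronic acid, from 23.0 ± 4.90 to 70.9 ± 11.8 CPM (log2 fold change 1.62, adjusted p = 0.0225, lost without Cont 1, Cont 2, OA 2 or OA 3). All 7 had positive log2 fold changes in OA against Cont, with a median of 0.85.

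Of 9 genes of bilirubin export and further handling, edgeR called 3 lower in OA against Cont livers and 3 higher in ZnPP+OA against OA livers, which share the OA livers. DESeq2 called 2 higher and 3 lower in the first and 3 higher and 1 lower in the second, and limma on log2(FPKM + 1) called 5 higher and 1 lower, then 0 higher and 5 lower. Cyp1a2 and Cyp2a5 encode P450 enzymes known to oxidise bilirubin in rodents. Cyp1a2 fell from 44.4 ± 29.4 to 3.39 ± 1.29 CPM in OA livers (log2 fold change −3.71, adjusted p = 0.00566 from edgeR) and stood at 21.6 ± 15.2 CPM in ZnPP+OA livers (2.67 against OA, adjusted p = 0.0314). Cyp2a5 fell by 1.95 (adjusted p = 0.0226) and rose by 2.35 in ZnPP+OA against OA livers (adjusted p = 0.0167). Abcb11, the bile salt export pump, fell by 1.21 (adjusted p = 0.0270) and rose by 1.58 (adjusted p = 0.0147). Of these 6 calls, that of Cyp1a2 in OA against Cont held without each of the 9 libraries. In ZnPP+OA against OA that of Cyp1a2 held in 4 of the 9 fits with a library left out. Those of Cyp2a5 held in 5 of 9 in each comparison. Those of Abcb11 held in 3 of 9 in OA against Cont and 5 of 9 in ZnPP+OA against OA. The exporters of conjugated bilirubin had log2 fold changes of 0.29 (Abcc2, the canalicular pump, adjusted p = 0.749) and 0.42 (Abcc3, which returns conjugates to blood, adjusted p = 0.704). Abcc4, a further exporter to blood, stood at 1.17 ± 0.533 CPM in Cont and 4.34 ± 0.912 CPM in OA livers (adjusted p = 0.117).

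Genes known to act on Hmox1 were all on the positive side in OA livers, 12 of 12 tested, and 2 rose, where 454 of all 18895 genes did. Their median log2 fold change was 0.59, beside 0.09 for all genes, and the list was not tested as a set. Nfe2l2, which encodes Nrf2, rose from 22.0 ± 7.65 to 55.5 ± 8.58 CPM (log2 fold change 1.33, adjusted p = 0.0334 from edgeR, lost without Cont 1, Cont 2, OA 2, OA 3 or ZnPP+OA 1) and stood at 38.2 ± 9.20 CPM in ZnPP+OA livers. Fos, a part of AP-1, rose by 2.58 (adjusted p = 0.0141, lost without OA 2 or OA 3) and fell by 2.73 in ZnPP+OA against OA livers (adjusted p = 0.0168, lost without OA 2 or 3 or without ZnPP+OA 2 or 3). Keap1, which holds Nrf2 back, stood at 0.50 (adjusted p = 0.319) and Bach1, a repressor of Hmox1, at 0.52 (adjusted p = 0.571).

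Other targets of Nrf2 were set beside Hmox1. Of 10 tested, 3 rose in OA against Cont livers and 3 fell in ZnPP+OA against OA livers (median log2 fold changes 1.59 and −1.42). Gclc, which makes the precursor of glutathione, stood at 54.2 ± 15.5 CPM in Cont, 332 ± 95.8 CPM in OA and 50.2 ± 13.3 CPM in ZnPP+OA livers (log2 fold changes 2.62, adjusted p = 0.00216, and −2.73, adjusted p = 0.00422, from edgeR). Srxn1, which encodes sulfiredoxin, followed the same course, with 2.97 (adjusted p = 0.00181) and −2.51 (adjusted p = 0.00737). The calls of Gclc and Srxn1 held without each of the 9 libraries. Txnrd1, which encodes a thioredoxin reductase, rose by 2.41 (adjusted p = 0.0357, lost without 7 of the 9 libraries), and Nqo1, which encodes a quinone reductase, stood at 1.63 (adjusted p = 0.208). Beside these, Hmox1 had 1.15 and −0.22. The difference between Hmox1 and these genes was not tested.

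Of 8 factors known to act on UGT1A1 or Ugt1a1, Nr1i3 (CAR, a nuclear receptor of bilirubin and drug clearance) fell in OA livers, from a Cont mean of 371 ± 124 CPM to 98.6 ± 58.9 CPM (log2 fold change −1.91, adjusted p = 0.0255 from edgeR, lost without Cont 1, Cont 3, OA 2 or OA 3). It stood at 259 ± 36.8 CPM in ZnPP+OA livers (1.39 against OA, adjusted p = 0.108). Hnf4a, a hepatocyte factor, stood at −0.21 (adjusted p = 0.764).

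**Figure D5:**
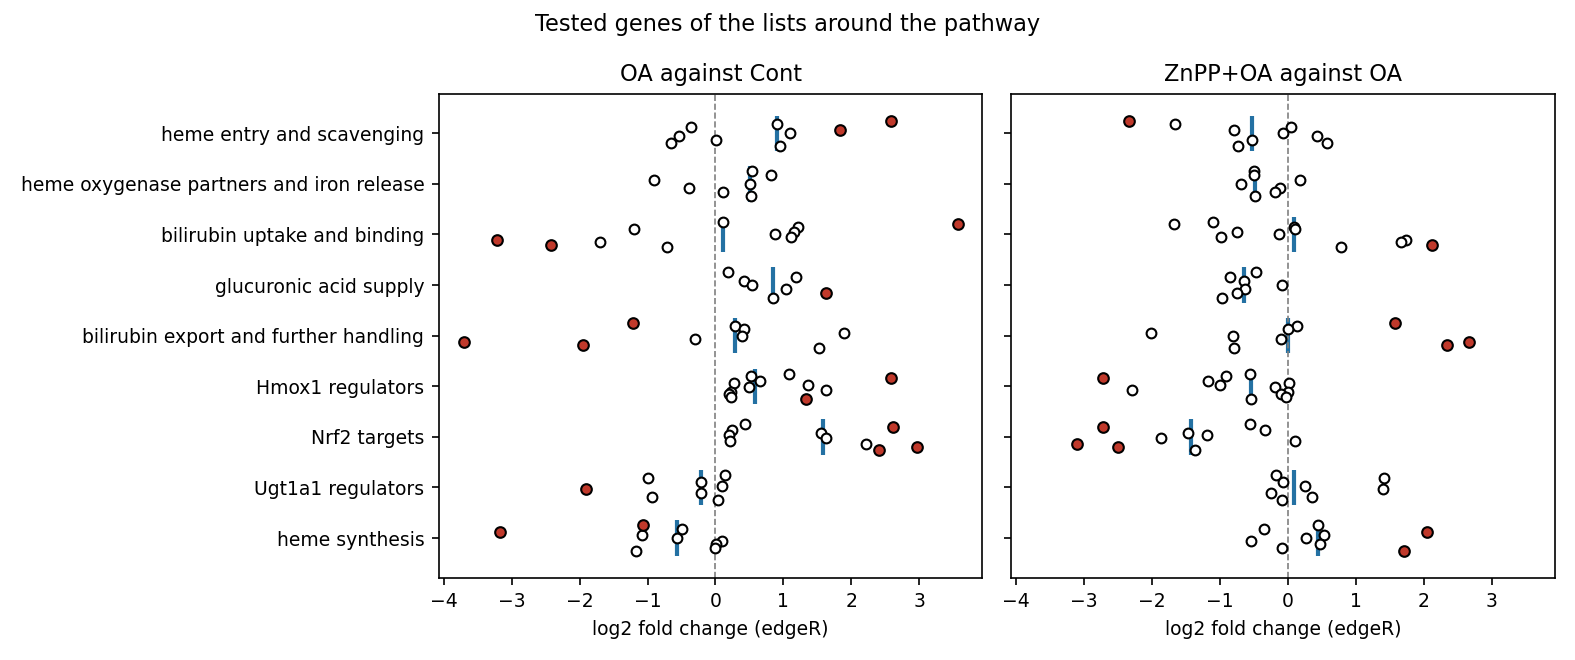
Log2 fold change of each tested gene in 9 lists around the pathway, in OA against Cont and in ZnPP+OA against OA, with filled points where the adjusted p was under 0.05 and a blue line at the median of the list. All 12 Hmox1 regulators lie to the right of 0 in OA against Cont, and the 2 comparisons share the OA livers.

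Macrophage markers are given beside the members. In bulk liver, more cells of a type and more RNA per cell cannot be told apart. Of all 18895 genes tested, edgeR called 454 higher in OA against Cont and 239 lower in ZnPP+OA against OA. Of 11 Kupffer cell markers, which include the Cd163 described above, 8 rose in OA livers, and 4 fell in ZnPP+OA against OA livers. Their summed level ran from 177 to 409 CPM in Cont, 865 to 1211 CPM in OA and 300.3 to 437 CPM in ZnPP+OA livers. Of 10 markers of monocytes and recruited macrophages 7 rose and 5 then fell, with sums of 83.4 to 155, 341 to 657 and 171 to 242 CPM (with RLE size factors, 6 and 4 Kupffer and 7 and 3 monocyte markers). No marker of either list was at 0 in a whole group. Of 10 hepatocyte markers 1 fell in OA livers (Ttr, transthyretin), with sums of 21055 to 66025, 16045 to 29193 and 20984 to 27396 CPM. In OA against Cont only 1 of the 10 had a positive log2 fold change. Their median was −0.95, beside 0.09 for all genes, and 5 had an unadjusted p under 0.05 in edgeR. DESeq2 called 4 of the hepatocyte markers lower, and limma on log2(FPKM + 1) called 1 higher. Their part in the levels of the 5 genes was not tested. Of the tested markers of neutrophils 1 of 7, of cholangiocytes 1 of 6 and of endothelium 0 of 6 rose in OA livers, and of 6 of erythrocytes 1 fell. The summed cholangiocyte markers ran from 45.0 to 98.0 CPM in Cont, 164 to 287 CPM in OA and 133 to 167 CPM in ZnPP+OA livers. Spp1 is in this list and also in that of monocytes and recruited macrophages, so it enters both sums. Among neutrophil markers Ly6g was at 0 in Cont livers.

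The genes most like each member were sought among 7604 coding genes averaging 5 CPM or more, by Pearson correlation of log2 CPM over the 9 livers, which all genes share. Hmox1 was most like Rap1gds1 (0.979), Plekho2 (0.938), Txnrd1 (0.936), Net1 (0.931) and Tubb6 (0.916). Hmox2 was most like Dennd10 (0.941), Clu (0.934), Lmbrd2 (0.929), Fbl (0.924) and Coasy (0.921). Blvra was most like Ntpcr (0.974), Fblim1 (0.971), Zfp106 (0.971), Pef1 (0.960) and Ptbp1 (0.956), and Blvrb was most like Gpi1 (0.972), Aida (0.970), Esco1 (0.963), Lamtor4 (0.960) and Rassf4 (0.954). Ugt1a1 was most like Ces2g (0.979), a carboxylesterase, followed by Lifr (0.952), Ddrgk1 (0.947), Scp2 (0.942) and Hsd17b6 (0.934). With ranks in place of values 0 to 2 of these 5 genes remained per member, and with library totals alone 0 to 3. Among the members, the correlation of Blvra with Ugt1a1 turned from −0.651 with TMM to 0.152 with library totals alone, and that of Hmox1 with Blvra went from 0.711 to 0.953.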

How the data were processed

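Liver RNA of 9 mice (3 per group) was read as poly(A)-selected, strand-marked libraries with paired reads of 150 bases. The authors deposited 1 table with a raw count and an FPKM (scaled by gene length and depth) for every gene and library. Per the labels, the tools include HISAT2 2.2.1 and StringTie 2.1.6 with cutadapt 1.9, edgeR and DESeq2, the build is mm10 (submitters' processing notes), and the sources used here do not say which tool made the counts. The table's start and end matched GENCODE M21 for 772 of 34019 genes (2.27%), so positions were taken from that annotation by ID. Counts were filtered (filterByExpr, min.count 10, min.total.count 15) and given TMM factors, and edgeR 4.0.16 (quasi-likelihood, R 4.3.3) tested them in 1 fit of the 3 groups with the threshold at an adjusted p (Benjamini-Hochberg) of 0.05. That fit was tested on simulated data. SEs are the log2 fold change over the root of F. Ratios within a library were compared with two-sided exact permutation tests, 18 in all.

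The members, lists and tests were chosen with earlier results of these data known. Named genes are the members, the Ugt1a genes, up to 4 genes of each list with the smallest unadjusted p in OA against Cont together with Nfe2l2, Keap1, Bach1, Nqo1, Abcc2, Abcc3 and Abcc4, and for each member the 5 most like it. Ttr and Ly6g were named after their values were seen. Alternatives were RLE size factors, library totals alone, leaving out mitochondrial genes and copies, dropping the filter or raising it to 10 counts in each library, DESeq2 1.42.0, limma 3.58.1 on log2 FPKM with 1 or 0.1 added (genes at 1 FPKM or more in 3 libraries, or all genes), only the 6 compared libraries, a replicate block and each library left out. Ratios were also taken from FPKM and with 0.5 added to each count. Summing the Ugt1a genes, with its own alternatives, and leaving libraries out for the named list genes were added after the data had been seen. With 3 libraries per group no liver was screened as an outlier. Some items are not reported here.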

Additional observations from a re-analysis of the deposited data

How the results depend on the processing

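Calls changed with another scaling, and calls of named list genes were also lost when single libraries were left out. With library totals alone the median gene stood at a log2 fold change of 1.48 in OA against Cont and −1.85 in ZnPP+OA against OA, and on the log2(FPKM + 1) scale 1.19 and −1.27, so fold changes there are to be read beside those medians. In OA against Cont, Hmox1 stood at 2.59 (totals), 2.70 (FPKM + 1, with and without a filter) and 2.88 (FPKM + 0.1), Hmox2 at 1.89 and 2.27 (FPKM + 1 and + 0.1), and Blvrb at 2.32 (FPKM + 1, with and without a filter) and 2.43, all past the threshold. In ZnPP+OA against OA, Hmox1 stood at −1.97 (totals), −1.94 and −2.01 (FPKM + 1 and + 0.1), Hmox2 at −1.90, −1.61 and −1.78, Blvra at −2.60, −2.03 (also without a filter) and −2.58, and Blvrb at −2.71, −2.66 (also without a filter) and −2.77, all past it. Ugt1a1 turned to −1.05, −0.58 (also without a filter) and −0.57 there, and the sum of the Ugt1a genes to −0.75 with totals. With totals in OA against Cont the sum stood at −0.51, short of the threshold. Totals also turned Abcb11 (0.28 in OA against Cont, −0.20 in ZnPP+OA against OA), Alad (0.38) and Uros (−0.0599). In OA against Cont, totals called 0 genes lower in uptake and binding (5 higher) and 0 lower in heme synthesis (0 higher). The calls of Slco1b2, Slco1a1 and Alas2 were thus lost there. With RLE size factors 1 gene of heme entry and scavenging and 2 Nrf2 targets were called higher in that comparison (2 and 3 in the main fit). Without totals or FPKM, Hmox2 in ZnPP+OA against OA turned to 0.072 (RLE), 0.059 (10 counts in each library) and 0.060 (DESeq2).

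Other settings moved calls in OA against Cont. Hmox1 passed without a filter (1.30) and with DESeq2 (0.98). Ugt1a1 passed without a filter (−2.16), with 10 counts in each library (−2.46), with DESeq2 (−2.50) and as the summed genes (−1.86). With only the 6 compared libraries Blvra (1.64) and the Ugt1a sum (−1.93) no longer passed, and the sum passed in ZnPP+OA against OA (1.14). The cause of these changes was not tested.

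With each library left out in turn, Hmox1 in OA against Cont ran from 0.86 to 1.56, Blvra from 1.52 to 1.98 and the Ugt1a sum from −2.14 to −1.22. Hmox2 in ZnPP+OA against OA ran from −0.28 to 0.13 and Blvrb in ZnPP+OA against Cont from −0.50 to 0.11. Log2 ratios whose sign turned were Hmox1/Hmox2 in ZnPP+OA against OA (−0.38 to 0.039) and against Cont (−0.085 to 0.63), Hmox1/Blvra in ZnPP+OA against Cont (−0.44 to 0.48), Hmox1/Blvrb in OA against Cont (−0.13 to 1.03) and Blvra/Blvrb in ZnPP+OA against OA (−0.20 to 0.40). With 2 against 3 the smallest exact p is 0.2. Of 27 calls of named list genes, 11 held without each library.

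Genes called numbered 984 in OA against Cont, 542 in ZnPP+OA against OA and 0 in ZnPP+OA against Cont. In OA against Cont there were 3038 with totals, 2121 without a filter, 3106 with DESeq2, 7535, 6550 and 6444 with limma (FPKM + 1, FPKM + 0.1, all genes), 523 with the 6 libraries and 242 to 1372 with a library left out. In ZnPP+OA against OA there were 6435, 1470, 1920, 8285, 6978, 7673, 1490 and 45 to 1030 in the same order, and 866 with 10 counts in each library. In ZnPP+OA against Cont there were 6 with totals, 135 without a filter, 245 with DESeq2, 2 and 5 with limma (FPKM + 1, FPKM + 0.1), and 0 to 4 with a library left out.

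The replicate numbers did not pair the mice: deviations of livers with the same number correlated at −0.101 to 0.014. With a replicate block 578 genes were called in OA against Cont and 287 in ZnPP+OA against OA, Blvra stood at 1.75 (adjusted p = 0.0354) and the Ugt1a sum at −1.79 (adjusted p = 0.0660), and no other call of the 5 genes changed.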

Other observations

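Heme synthesis, which supplies the substrate of the pathway, was looked at beside it. Of 9 tested enzymes edgeR called 2 lower in OA against Cont livers, with a median log2 fold change of −0.57. Alas2, the erythroid form of the first enzyme, fell by 3.18 on the log2 scale in OA livers, to 1.99 ± 0.210 CPM (SD, n = 3 mice, adjusted p = 0.00116 from edgeR) and rose to 8.23 ± 1.18 CPM in ZnPP+OA livers (2.05 against OA, adjusted p = 0.0159, lost in 4 of the 9 fits with a library left out). Alad, the second enzyme of heme synthesis, fell by 1.07 on the log2 scale in OA livers (adjusted p = 0.0356, lost without 8 of the 9 libraries). Uros, a later enzyme, rose by 1.71 in ZnPP+OA against OA livers (adjusted p = 0.0291, lost in 5 of the 9 fits with a library left out), from 4.90 ± 1.44 to 16.0 ± 2.67 CPM. The summed erythrocyte markers, Alas2 among them, ran from 239 to 896 CPM in Cont, 157 to 241 CPM in OA and 177 to 182 CPM in ZnPP+OA livers, and their part in the level of Alas2 was not tested.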
